A study of Mus musculus with 2 samples.

Results

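Srebf1, Srebf2, Mlxipl, Mlx, Thrsp, Insig1, Insig2, Scap, Pnpla3 and Nr1h3 are 10 genes around SREBP1 and ChREBP, the transcription factors that switch on fatty acid synthesis. They were chosen by symbol among the 32285 genes listed in both libraries, and all 10 were found. They were followed in single nuclei of mesenteric perivascular fat from mice aged 11 weeks, sequenced with 10x Genomics 3′ chemistry. The library labelled Prdm16 cKO came from mice with floxed Prdm16 alleles that also carried Cre under the Adipoq promoter, which is active in adipocytes. The flox control library came from floxed mice without Cre, so both libraries share the floxed alleles, and the title of the control sample calls it wild type. Each genotype had 1 library, how many animals went into it is not given in the labels, and the sample labels name mesenteric fat although the series title names the thoracic and abdominal depots. With no replicates, no difference below has a replicate check. All intervals are at the 95% level and hold counting error alone.

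SREBP proteins are made as precursors in the membrane of the endoplasmic reticulum. Scap escorts them to the Golgi, where they are cut to release the active factor, and Insig1 and Insig2 hold Scap back when sterols are plentiful. SREBP1, from Srebf1, mainly drives genes of fatty acid synthesis and SREBP2, from Srebf2, those of cholesterol synthesis and uptake. ChREBP, from Mlxipl, pairs with Mlx and responds to sugar metabolites, while LXR alpha, from Nr1h3, is a receptor for oxysterols that raises Srebf1. In fat, these factors tie lipid synthesis to feeding, and Thrsp and Pnpla3 are lipid genes that feeding and carbohydrate induce.

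Promoter sequences are given first for Srebf1, Mlxipl, Thrsp, Insig1 and Pnpla3, the 5 members whose levels moved together with the lipogenic state of adipocyte-like nuclei. Srebf1 had 3 windows, and the one shown is the farthest downstream of those with a motif match. The windows run from 250 bases before a RefSeq transcript start to 50 bases after it, on GRCm38.p6, and are printed 5′ to 3′ on the strand of the gene. They lie at chr11:60210422-60210721 on the minus strand for Srebf1, at chr5:135089640-135089939 and chr5:135106641-135106940 on the plus strand for Mlxipl, at chr7:97417501-97417800 on the minus strand for Thrsp, at chr5:28071162-28071461 on the plus strand for Insig1 and at chr15:84167566-84167865 on the plus strand for Pnpla3. Capitals mark matches, on either strand, to an E-box (CACGTG), a sterol regulatory element (TCACNCCAC) or a CCAAT box (CCAAT, which reads ATTGG on the other strand).
Srebf1: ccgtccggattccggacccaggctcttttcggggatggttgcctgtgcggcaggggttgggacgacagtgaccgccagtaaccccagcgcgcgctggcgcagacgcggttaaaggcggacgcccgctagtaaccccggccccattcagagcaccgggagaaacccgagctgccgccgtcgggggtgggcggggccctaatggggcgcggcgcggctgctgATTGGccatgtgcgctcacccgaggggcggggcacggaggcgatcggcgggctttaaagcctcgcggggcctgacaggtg
Mlxipl upstream start: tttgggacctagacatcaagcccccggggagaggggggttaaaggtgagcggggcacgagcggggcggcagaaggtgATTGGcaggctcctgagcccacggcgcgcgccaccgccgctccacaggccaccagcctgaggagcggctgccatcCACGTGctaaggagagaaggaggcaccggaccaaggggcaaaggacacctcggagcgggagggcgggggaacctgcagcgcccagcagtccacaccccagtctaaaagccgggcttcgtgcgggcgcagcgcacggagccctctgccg
Mlxipl downstream start: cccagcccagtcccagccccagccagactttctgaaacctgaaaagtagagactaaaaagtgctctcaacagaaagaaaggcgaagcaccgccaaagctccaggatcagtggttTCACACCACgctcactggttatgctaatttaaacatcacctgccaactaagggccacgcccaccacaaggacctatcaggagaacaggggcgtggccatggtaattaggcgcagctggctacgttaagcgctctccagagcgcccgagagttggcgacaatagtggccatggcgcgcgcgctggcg
Thrsp: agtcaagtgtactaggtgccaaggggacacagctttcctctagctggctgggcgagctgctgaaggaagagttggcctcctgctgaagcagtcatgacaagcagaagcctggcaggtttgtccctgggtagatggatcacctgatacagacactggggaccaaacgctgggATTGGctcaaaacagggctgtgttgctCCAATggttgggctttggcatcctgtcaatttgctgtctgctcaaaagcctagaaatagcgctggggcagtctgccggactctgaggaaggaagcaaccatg
Insig1: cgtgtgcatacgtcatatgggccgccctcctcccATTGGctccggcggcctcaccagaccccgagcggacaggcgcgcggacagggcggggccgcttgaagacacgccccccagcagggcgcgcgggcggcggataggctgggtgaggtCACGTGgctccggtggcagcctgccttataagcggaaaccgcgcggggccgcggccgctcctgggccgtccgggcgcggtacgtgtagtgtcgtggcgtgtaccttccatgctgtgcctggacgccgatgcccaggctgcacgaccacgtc
Pnpla3: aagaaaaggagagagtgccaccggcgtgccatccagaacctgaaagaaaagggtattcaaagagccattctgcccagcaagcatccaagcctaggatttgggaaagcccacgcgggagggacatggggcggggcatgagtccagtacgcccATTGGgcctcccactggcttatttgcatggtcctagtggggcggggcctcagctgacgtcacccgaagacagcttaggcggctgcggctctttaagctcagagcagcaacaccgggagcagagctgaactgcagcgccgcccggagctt

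The 10 members had 17 RefSeq windows. An E-box stood in 5 of them, and 7.15% of all 32851 mouse promoter windows of the same length held one. The 2 Scap windows overlap and hold the same E-box, which is thus counted in each. In the Insig1 window an E-box began 101 bases before the start, and in the upstream Mlxipl window 98 bases before it. The only sterol regulatory element matched was TCACACCAC, 136 bases before the downstream Mlxipl start, where 1.24% of all windows held this motif. A CCAAT box stood in 9 of the 17 windows and in 37.4% of all windows, and the Thrsp window held a pair of them. A carbohydrate response element, searched as CACGTG, 5 bases of any kind and CACGTG again, was in none of the members' windows and in 0 of all windows, and a direct repeat for LXR, searched as AGGTCA, 4 bases of any kind and AGGTCA again, was in none of the members' windows and in 0.0152% of all. Both of these repeats were so rare among all windows that their lack in the members' windows cannot show that such sites are absent. Sites that differ from the letters searched were not looked for. A match is a string of letters and not a measured site. No motif overlapped another in these windows. From the upstream start of Mlxipl, mice are known to make the shorter beta form of ChREBP, and the files count UMIs per gene, so the forms cannot be told apart here.

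After filtering, 7374 nuclei remained in the library labelled Prdm16 cKO (62275986 UMIs, median 6521 per nucleus) and 10532 in the flox control (92779065 UMIs, median 7035). Prdm16 itself (ENSMUSG00000039410) was at 22.7 CPM (UMIs per 1000000 UMIs of the summed nuclei; interval 21.2 to 24.3) in adipocyte-like nuclei of the cKO-labelled library and at 16.6 CPM (15.5 to 17.7) in the flox control. The targeted gene was thus not lower there. In vascular endothelial-like nuclei, where it was highest among the compared classes, Prdm16 had 197 CPM in the cKO-labelled and 369 CPM in the control library and so was lower (log2 -0.90, -1.08 to -0.73). These nuclei also carried adipocyte RNA. There, 7 adipocyte markers summed to 42.3% of their adipocyte-like level in the cKO-labelled library and to 23.9% in the control. The part of this in the Prdm16 ratio was not tested. Since the floxed exon is not given in the labels, counts at the 3′ end do not check the deletion. Every direction between the libraries rests on labels that these counts could not check. Nuclei were clustered, and clusters were named from marker genes with the ending "-like". Adipocyte-like nuclei numbered 2824 (38.3%) in the cKO-labelled library and 4110 (39.0%) in the control, and 12 of 12 adipocyte markers were higher in them than in all other nuclei, by 1.58 to 2.90-fold and 2.09 to 3.87-fold. The same markers named the clusters, so this describes the class and does not check it. A shallow cluster with Pon1, Erbb4, Lrp1b and Grik1 among its leading genes, and with 14.2% of cKO-labelled and 6.84% of control nuclei, was left unnamed for its depth, although 12 of 12 adipocyte markers passed the naming limit in it. Rbpjl, a leading gene of the pancreatic acinar-like cluster, was among its leading genes too. Without doublet removal, a shallow unnamed cluster with Grik1 and Lrp1b among its leading genes had acinar markers as its best set. What these nuclei are was not settled. The libraries shared 24 barcodes among kept nuclei. Markers of acinar cells of the pancreas, a neighbouring organ, summed to 140.0 to 165 CPM across the adipocyte-like bands described next in the cKO-labelled library and to 29.8 to 38.7 CPM in the control, and their part in the results was not tested.

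Adipocyte-like nuclei were divided by their lipogenic state, taken as the summed CPM of Acly, which makes cytosolic acetyl-CoA, and Elovl6, which elongates fatty acids. The limits of the 4 bands lay at 343, 820 and 2841 CPM, the quartiles when both libraries weigh the same. From the lowest to the highest band there were 325, 702, 797 and 1000 nuclei in the cKO-labelled library, against 1581, 1034, 895 and 600 in the flox control. The highest band thus held 35.4% of cKO-labelled and 14.6% of control adipocyte-like nuclei, and the lowest band 11.5% and 38.5%. Median depth differed little between bands, at 11382 to 12239 UMIs in the cKO-labelled library and 11977 to 12691 in the control. The summed level of adipocyte markers was lower in the highest than in the lowest band, at 19840 against 32000 CPM in the cKO-labelled library and at 22610 against 27160 CPM in the control. Ghr made up much of it, at 10760 against 20700 CPM and 13170 against 15790 CPM, while Pparg (3275 against 2687 CPM and 3126 against 2113 CPM) and Lep (179 against 123 CPM and 140.2 against 132 CPM) were higher in the highest band, and the other 9 of the 12 were lower in both libraries. Markers of granulocytes and mast cells summed to 77.8 against 10.7 CPM in the highest against the lowest band of the cKO-labelled library and to 63.6 against 10.5 CPM in the control, of which Kit alone made up 75.1 against 6.67 CPM and 59.3 against 5.21 CPM. The B cell list summed to 3066 against 4868 CPM and 2921 against 5420 CPM, nearly all of it Ebf1, and Cd79a and Ms4a1, which define B cells, were each under 6 CPM. Pericyte markers in the lowest band summed to 243 CPM in the cKO-labelled library and 87.4 CPM in the control, mostly Steap4 at 235.6 and 78.5 CPM, with Rgs5 under 1 CPM in both. The part of these marker differences in the results below was not tested.

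Along the bands, the levels of Insig1, Mlxipl, Thrsp, Srebf1 and Pnpla3 were higher with each step in both libraries, and these 5 of 10 members were at least 1.5-fold higher in the highest than in the lowest band in both. Of 11452 genes with at least 50 UMIs over the compared bands in each library, 3.99% met the same rule. None of the 10 members was at least 1.5-fold lower in both libraries, against 4.21% of all genes. Within single libraries, 6 members passed in the cKO-labelled library, where 8.88% of genes did, and 5 in the control, where 6.25% did. The median log2 ratio over the members was 1.20 in the cKO-labelled library and 0.67 in the control, where the medians over all genes were -0.04 and -0.04.

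**Figure D1:**
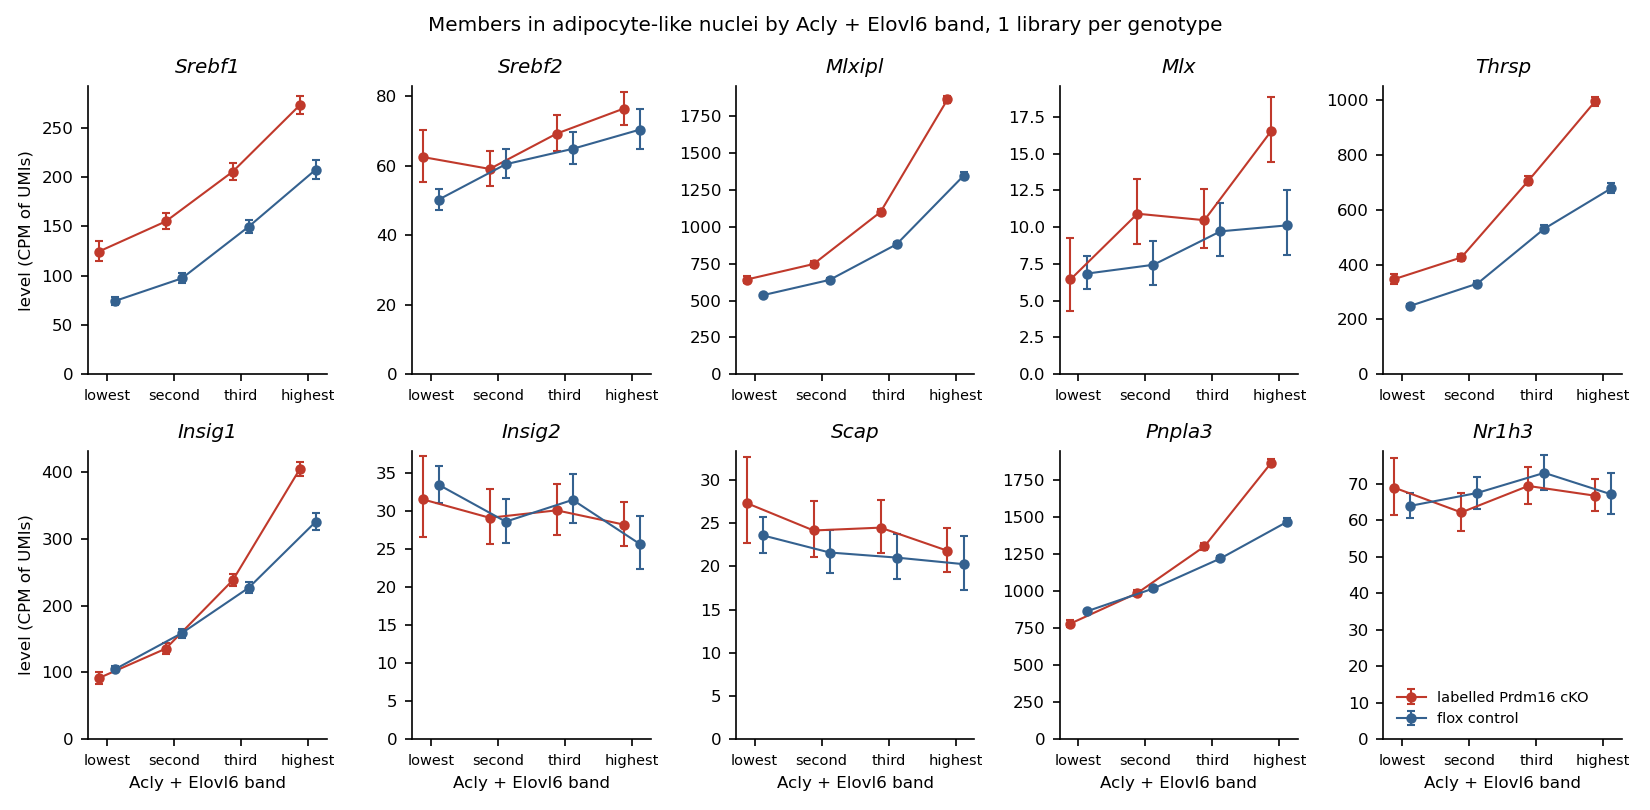
Level of each member (CPM of summed UMIs, linear axes from 0) in the 4 Acly and Elovl6 bands of adipocyte-like nuclei, low to high, in the library labelled Prdm16 cKO (red) and the flox control (blue); bars are 95% Poisson intervals and 1 library stands behind each line. Insig1, Mlxipl, Thrsp, Srebf1 and Pnpla3 climb in both libraries, while Insig2, Scap and Nr1h3 show no upward course.

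Among the transcription factors, Srebf1 (ENSMUSG00000020538, chromosome 11, 60199089 to 60222581 on GRCm38, minus strand) had 125, 155, 206 and 273 CPM from the lowest to the highest band in the cKO-labelled library, against 74.3, 97.3, 150 and 208 CPM in the flox control. The cKO-labelled value was above the control value in every band, and the intervals of the libraries did not overlap in any band. The highest over the lowest band gave a log2 ratio of 1.13 (1.00 to 1.26) in the cKO-labelled library and 1.48 (1.38 to 1.58) in the control. Srebf2 (ENSMUSG00000022463, chromosome 15, 82147181 to 82205379, plus strand), the cholesterol factor, had a smaller ratio than Srebf1 along the bands, at 62.5, 59.0, 69.2 and 76.4 CPM in the cKO-labelled library and 50.2, 60.4, 64.8 and 70.3 CPM in the control. Its ratio of highest over lowest band was 0.29 (0.10 to 0.49) and 0.49 (0.34 to 0.63) on the log2 scale. After nuclei were thinned to 2000 UMIs it was 0.34 and 0.93, so the control value then passed 1.5-fold.

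Mlxipl (ENSMUSG00000005373, chromosome 5, 135089890 to 135138382, plus strand) had 643, 748, 1101 and 1865 CPM in the cKO-labelled library and 536, 640.3, 882 and 1347 CPM in the control. The highest band was 2.90-fold above the lowest in the cKO-labelled library (log2 1.54, 1.48 to 1.59) and 2.51-fold in the control (1.33, 1.29 to 1.37). Mlx (ENSMUSG00000017801, chromosome 11, 101087277 to 101092207, plus strand), its partner, was sparse, with 6.45, 10.9, 10.5 and 16.6 CPM against 6.84, 7.45, 9.72 and 10.1 CPM. Mlx was 2.57-fold higher in the highest than in the lowest band of the cKO-labelled library, which had 224 and 29 UMIs, and 1.48-fold higher in the control, just under the threshold. Nr1h3 (ENSMUSG00000002108, chromosome 2, 91184061 to 91202834, minus strand) stayed between 62.1 and 69.4 CPM in the cKO-labelled library and between 63.9 and 73.0 CPM in the control. Its log2 ratio of highest over lowest band was -0.05 (-0.23 to 0.14) and 0.07 (-0.08 to 0.21), and both intervals include 0.

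Of the membrane proteins that hold or escort SREBP, Insig1 and Insig2 went apart. Insig1 (ENSMUSG00000045294, chromosome 5, 28071363 to 28078662, plus strand), itself a target of SREBP, had 91.4, 136, 237.9 and 404 CPM from the lowest to the highest band in the cKO-labelled library, against 105, 159, 227 and 326 CPM in the control. That was the steepest slope among the members, 4.43-fold (log2 2.15, 2.0 to 2.29) and 3.12-fold (1.64, 1.56 to 1.72). In the lower 2 bands the cKO-labelled value was below the control value, and in the highest band above it. Insig2 (ENSMUSG00000003721, chromosome 1, 121304353 to 121332589, minus strand) lay between 28.2 and 31.6 CPM in the cKO-labelled library and between 25.7 and 33.5 CPM in the control, with log2 ratios of highest over lowest band of -0.16 (-0.44 to 0.13) and -0.38 (-0.61 to -0.16). Scap (ENSMUSG00000032485, chromosome 9, 110333288 to 110384950, plus strand) lay between 21.8 and 27.3 CPM and between 20.3 and 23.6 CPM, with ratios of -0.33 (-0.63 to -0.01) and -0.22 (-0.48 to 0.03). The direction turned after thinning to 2000 UMIs for Insig2 in the control (0.21, with -0.49 in the cKO-labelled library) and for Scap in the cKO-labelled library (0.17, with -0.04 in the control).

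The lipid genes Thrsp and Pnpla3 followed the bands. Thrsp (ENSMUSG00000035686, chromosome 7, 97412938 to 97417730, minus strand), which encodes Spot 14, a nuclear protein tied to fatty acid synthesis, had 347, 426, 706 and 996 CPM in the cKO-labelled library and 249.6, 331, 531 and 678 CPM in the control, with the cKO-labelled library higher in every band. Its highest band was 2.87-fold and 2.72-fold above the lowest. Pnpla3 (ENSMUSG00000041653, chromosome 15, 84167837 to 84187236, plus strand), which encodes the lipid droplet protein adiponutrin, had 781, 988, 1303 and 1870 CPM, against 864, 1019, 1222 and 1471 CPM. Its slope was 2.39-fold in the cKO-labelled library and 1.70-fold in the control, and in the lower 2 bands the cKO-labelled value was below the control value.

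The share of nuclei with a UMI followed the same course once each nucleus was thinned to 2000 UMIs. Srebf1 was then seen in 23.0, 26.4, 33.8 and 40.7% of cKO-labelled nuclei from the lowest to the highest band, against 14.1, 18.5, 25.0 and 36.2% of control nuclei. Mlxipl was seen in 68.3, 75, 85.5 and 95.4% against 62.2, 71.5, 78.3 and 88.3%. In thinned B cell-like nuclei, given as the background, the shares were 13.5% and 5.71% for Srebf1 and 52.6% and 32.9% for Mlxipl. Before thinning, the whole adipocyte-like class had Srebf1 in 85.2% and 69.2% of nuclei at median depths of 11935 and 12421 UMIs, and B cell-like nuclei in 36.1% and 14.7% at 4268 and 3763 UMIs. Across thinned adipocyte-like nuclei, the Spearman correlation with summed Acly and Elovl6 was, for Mlxipl, 0.45 over 2800 cKO-labelled nuclei and 0.28 over 4107 control nuclei. It was 0.34 and 0.23 for Thrsp, 0.35 and 0.17 for Pnpla3, 0.26 and 0.19 for Insig1, 0.12 and 0.17 for Srebf1, and between -0.01 and 0.07 for the other members. These are descriptions over nuclei that share a library, and a sparse gene cannot reach a high value. The mean after thinning was 2.56 and 1.55 UMIs per nucleus for Mlxipl, 2.77 and 2.09 for Pnpla3, 0.432 and 0.247 for Srebf1 and 0.025 and 0.0144 for Mlx, so the correlations of different members are not set against each other.

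The clusters gave a similar picture. Cluster 1, whose 10 leading genes include Elovl6, Acly, Acss2 and Me1, held 1187 (42.0%) of the cKO-labelled and 744 (18.1%) of the control adipocyte-like nuclei. Because it was built from the same counts, its values are given as a description. Against the other adipocyte-like nuclei, its Insig1 level was 382 against 160 CPM in the cKO-labelled library and 328 against 142 CPM in the control, and its Mlxipl level 1762 against 837 CPM and 1272 against 638 CPM. Srebf1 was 1.57-fold and 1.77-fold higher there, Thrsp 1.82-fold and 1.71-fold and Pnpla3 1.68-fold and 1.54-fold. Nr1h3 stood at 67.2 against 66.2 CPM and 67.5 against 67.2 CPM.

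Between the libraries, 4 of the 10 members were at least 1.5-fold higher in all adipocyte-like nuclei of the cKO-labelled library and 0 were at least 1.5-fold lower. Of the 15264 genes with at least 50 UMIs there, 5.71% were higher by that rule and 3.22% lower. The members' median log2 ratio was 0.44 and that of all genes 0.04. Srebf1 was at 208 CPM (203 to 213) in the cKO-labelled library and 116 CPM (114 to 119) in the flox control, a log2 ratio of 0.84 (0.79 to 0.89). Thrsp was at 699.7 against 395 CPM (0.83, 0.80 to 0.85) and Mlxipl at 1236 against 758 CPM (0.71, 0.69 to 0.72). Mlx, at 12.3 against 8.11 CPM (0.60, 0.41 to 0.79), lay just inside the threshold, which its interval includes, and Insig1, at 255.5 against 177 CPM (0.53, 0.49 to 0.57), just outside it. Taking adipocyte nuclei by their share of marker UMIs alone left Srebf1 (0.67) and Thrsp (0.75) past the threshold and took Mlxipl (0.47) and Mlx (0.45) under it. That share had to be at least 2%, which gave 1971 cKO-labelled and 3318 control nuclei. Among them were 1749 of 2824 cKO-labelled and 3029 of 4110 control adipocyte-like nuclei, and the rest came from outside that class. Summed markers were lower in the highest than in the lowest band, so this choice may also change the mix of bands, which was not tested. In all adipocyte-like nuclei, Insig1 was 1.44-fold and Pnpla3, at 1369 against 1070 CPM, 1.28-fold higher (0.35, 0.34 to 0.37).

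The remaining members differed little between the libraries. Srebf2 was at 68.5 CPM in the cKO-labelled library and 58.9 CPM in the control, a log2 ratio of 0.22 (0.14 to 0.29), which was 0.04 after thinning to 2000 UMIs. Scap was at 23.8 and 22.05 CPM (0.11, -0.02 to 0.23), Nr1h3 at 66.6 and 67.2 CPM (-0.01, -0.09 to 0.06) and Insig2 at 29.4 and 30.7 CPM (-0.06, -0.17 to 0.05). The intervals of these 3 include 0, so a difference of that size was not detectable at this depth.

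The bands were filled so unequally that the library ratio was also read within them. With equal shares of the 4 bands in both libraries, 0 of the 10 members were at least 1.5-fold apart, where 5.06% of all genes were higher and 2.78% lower by the same rule. Srebf1 then had a ratio of 1.43-fold, Thrsp 1.38-fold, Mlx 1.30-fold, Mlxipl 1.28-fold, Pnpla3 1.08-fold and Insig1 1.07-fold, and the members' median log2 ratio was 0.15, against 0.05 for all genes. Srebf1 was 1.68-fold higher in the cKO-labelled library in the lowest band, 1.59-fold in the second, 1.37-fold in the third and 1.31-fold in the highest. Thrsp lay between 1.29-fold and 1.47-fold and Mlxipl between 1.17-fold and 1.38-fold, both with the largest ratio in the highest band. Insig1 and Pnpla3 changed side, at 0.874-fold and 0.905-fold in the lowest band and at 1.24-fold and 1.27-fold in the highest. Mlx did so too, at 0.942-fold in the lowest band, with an interval that includes no difference. In the highest band Mlx was at 1.64-fold from 224 and 84 UMIs, with a log2 interval of 0.34 to 1.09 that includes 1.5-fold.

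**Figure D2:**
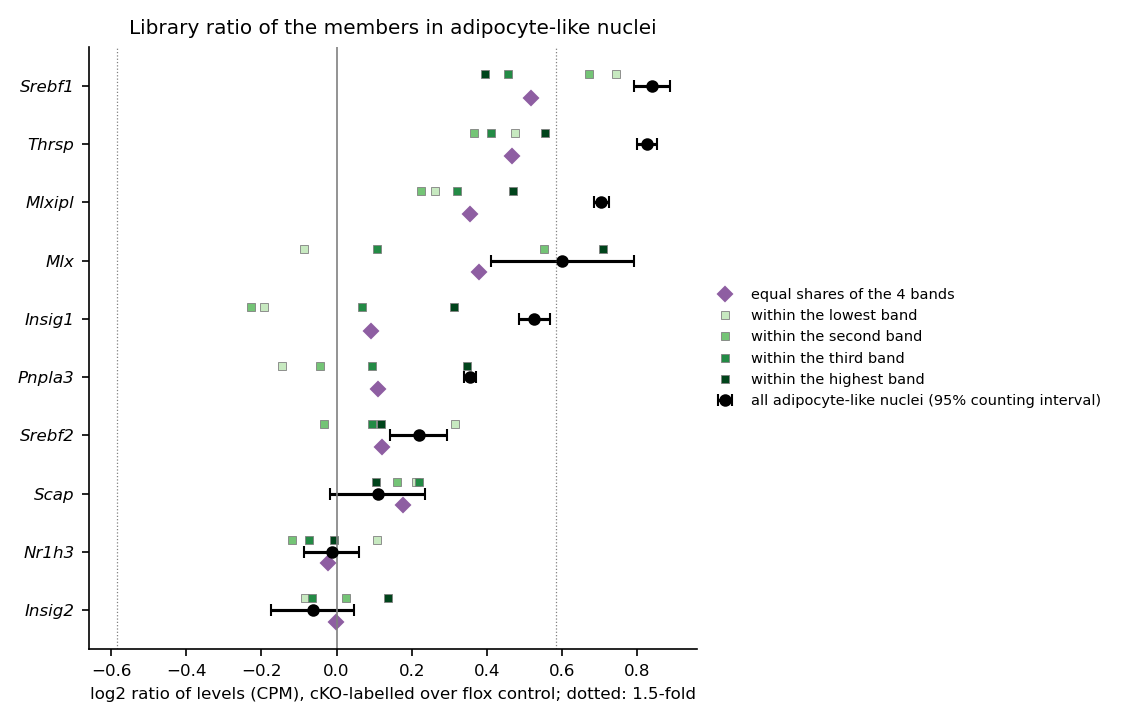
Log2 ratio of CPM in the cKO-labelled library over the flox control for each member in all adipocyte-like nuclei (black, with 95% counting intervals), with equal shares of the 4 bands (purple) and within each band (green, pale for the lowest); dotted lines mark 1.5-fold. Srebf1, Thrsp, Mlxipl and Scap lie right of 0 in every band, and the other 6 members on both sides of it.

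Within the 4 adipocyte-like clusters taken one at a time, the log2 ratio ran from 0.52 to 0.67 for Srebf1, from 0.29 to 0.73 for Thrsp and from 0.22 to 0.48 for Mlxipl, so these 3 were higher in the cKO-labelled library in each cluster. Insig1 ran from -0.28 in cluster 3, led by Nnat, which held 7.93% of cKO-labelled and 34.7% of control adipocyte-like nuclei, to 0.60 in cluster 7. Pnpla3 ran from -0.06 to 0.25. Srebf1 overlaps Rai1 on the opposite strand, and the handling of strand is not given. Rai1 was at 163 CPM in the cKO-labelled library and 177 CPM in the control (log2 -0.12). In the highest against the lowest band it was at 162 against 159.6 CPM in the cKO-labelled library and at 189 against 165 CPM in the control. The genes that overlap Mlxipl (Gm43500), Mlx (Psmc3ip) and Nr1h3 (Gm13783) were each under 1 CPM in adipocyte-like nuclei of both libraries.

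Across cell classes, 9 had at least 100 nuclei in each library. Srebf1, Mlxipl, Mlx, Thrsp, Insig1 and Pnpla3 were highest in adipocyte-like nuclei in both libraries, 6 of the 10 members, as were 10.8% of the 17236 genes compared. Levels in the other 8 classes have to be read beside adipocyte RNA found there: 7 adipocyte markers summed to 22.2 to 48.7% of their adipocyte-like level in the cKO-labelled library and to 18.1 to 34.1% in the control. Mlxipl stood at 19.0 to 45.9% and 16.2 to 31.2% of its adipocyte-like level, within or below the range of the single markers in each of the 8 classes of both libraries. Pnpla3 lay within that range too, except for dendritic-like nuclei of the control, where it was above it.

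Thrsp stood higher in these classes than single markers did, in 7 of 8 classes of the cKO-labelled library and in 8 of 8 of the control, with 35.3 to 64.4% and 30.2 to 47.6% of its adipocyte-like level. In T cell-like nuclei it had 438 CPM in the cKO-labelled library and 175 CPM in the control. Srebf1 was above the marker range in dendritic-like and mesothelial-like nuclei of the cKO-labelled library and in 5 classes of the control. In dendritic-like nuclei it had 117 and 43.0 CPM, or 56.7 and 20.03 CPM after the adipocyte profile was subtracted at the share given by the markers. Insig1 was above the range in macrophage-like nuclei of the cKO-labelled library and in 5 classes of the control. These placements are point values without intervals, and some margins were small. Insig1 had 35.13% in those macrophage-like nuclei and the highest marker 34.03%. Srebf1 had 37.96% against 36.88% in B cell-like nuclei of the control. Thrsp had 55.15% against 54.16% in vascular endothelial-like nuclei of the cKO-labelled library. Such small margins do not show a level above the range. A wider one was Srebf1 at 29.77% against 21.21% in progenitor or fibroblast-like nuclei of the control. Mlx was closest to its adipocyte-like level in macrophage-like nuclei of the cKO-labelled library (75.1%) and in T cell-like nuclei of the control (97.2%), from 25 and 15 UMIs.

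Srebf2, Insig2, Scap and Nr1h3 had another class highest in at least 1 library. Srebf2 was highest in B cell-like nuclei, at 171 CPM (149 to 195) in the cKO-labelled library and 161 CPM (141 to 183) in the control, and next in dendritic-like nuclei at 141 and 142 CPM, with overlapping intervals. Adipocyte-like nuclei ranked 6 and 7 among the 9 classes for Srebf2. Insig2 was highest in lymphatic endothelial-like nuclei, at 56.4 CPM (39.9 to 77.4) and 47.3 CPM (35.7 to 61.4), and between 23.9 and 39.2 CPM elsewhere. Scap was highest in vascular endothelial-like nuclei of the cKO-labelled library (40.0 CPM) and in B cell-like nuclei of the control (42.7 CPM), with intervals that overlap those of T cell-like nuclei in both libraries and, in the cKO-labelled library, of B cell-like nuclei (39.3 CPM, 29.2 to 51.8). It was lowest in macrophage-like nuclei of both (16.6 and 19.0 CPM). Nr1h3 was at 78.7 CPM (58.9 to 103) and 59.1 CPM (46.1 to 74.7) in lymphatic endothelial-like nuclei and at 66.6 and 67.2 CPM in adipocyte-like nuclei, with overlapping intervals in both libraries.

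**Figure D3:**
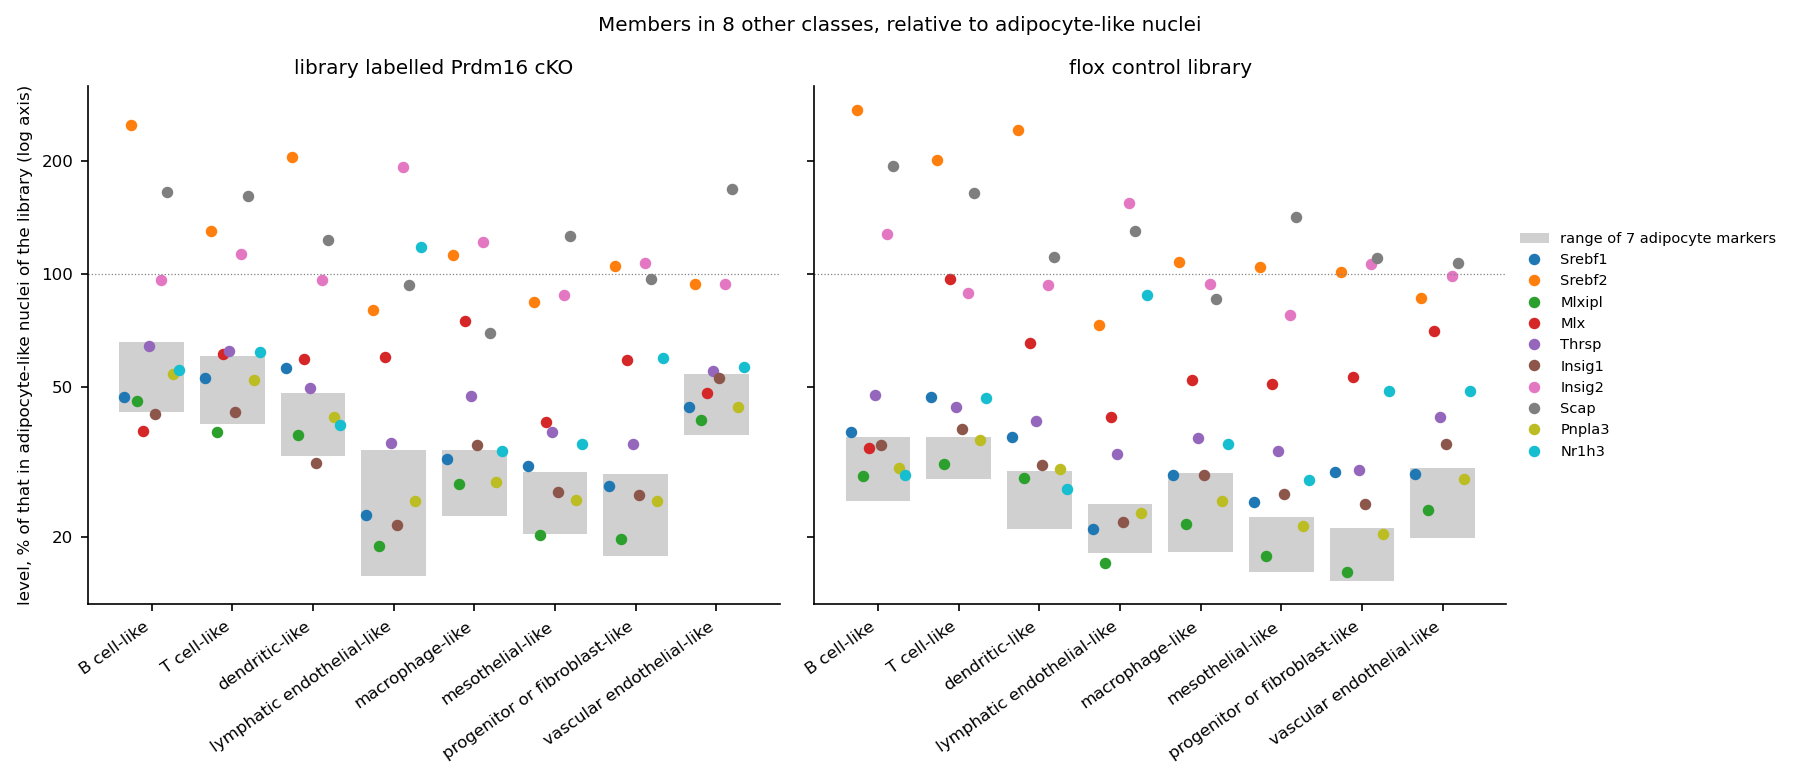
Level of each member in 8 other classes as a percentage of its level in adipocyte-like nuclei of the same library (log axis), with the library labelled Prdm16 cKO left and the flox control right; grey boxes span 7 adipocyte markers. Mlxipl and Pnpla3 lie in or near the boxes, Thrsp mostly above them, and Srebf2 at or near 200% or more in B cell-like and dendritic-like nuclei.

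Outside adipocytes the library ratios have to be read beside the same adipocyte RNA, and its part in them was not tested. In B cell-like nuclei, 6 of 9 members with at least 50 UMIs were at least 1.5-fold higher in the cKO-labelled library, where 8.79% of genes were, and in T cell-like nuclei 5 of 9, where 6.8% were. The count was 4 of 9 in dendritic-like nuclei (9.36% of genes), 3 of 8 in lymphatic endothelial-like (5.69%), 4 of 9 in macrophage-like (5.26%), 3 of 9 in mesothelial-like (4.82%), 6 of 10 in progenitor or fibroblast-like (4.97%) and 6 of 9 in vascular endothelial-like nuclei (9.45%). Mlxipl was at 568 against 221 CPM in B cell-like nuclei, and adipocyte markers there stood at 48.7% of their adipocyte-like level in the cKO-labelled library and at 28.8% in the control. After the adipocyte profile was subtracted, Mlxipl was at 0 and 3.38 CPM in these nuclei, and Thrsp at 214 and 104 CPM. In the cKO-labelled library Thrsp stood there at 64.4% of its adipocyte-like level, within the 43.1 to 66.0% of the single markers. In the control it stood at 47.6%, above their 24.95 to 36.9%. Srebf2 in B cell-like nuclei differed little between the libraries (log2 0.08).

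The enzymes that SREBP1 and ChREBP are known to drive went the same way as Srebf1 and Mlxipl. Of 16 genes of fatty acid synthesis, 11 were at least 1.5-fold higher in adipocyte-like nuclei of the cKO-labelled library and 0 lower, with a median log2 ratio of 0.72, against 5.71% and 3.22% of all genes and a median of 0.04. Acly was highest, at 1658 against 749 CPM (1.15), and G6pdx, which makes NADPH, lowest, at 66.3 against 52.0 CPM (0.35). The bands were filled unequally in the 2 libraries, and the part of this in the ratios of the list was not tested. With equal shares of the 4 bands, Acly was 1.21-fold and Elovl6 0.975-fold, and these genes define the bands. The other enzymes and the lists below were not read this way. Along the bands, 13 of the 14 genes left when Acly and Elovl6 are set aside were at least 1.5-fold higher in both libraries, where 3.99% of all genes were. Me1, malic enzyme, had the steepest slope, with log2 ratios of highest over lowest band of 3.15 and 2.90, and the desaturase gene Fads1 the flattest, with 0.52 and 0.36.

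Genes of cholesterol synthesis and uptake, the usual targets of SREBP2, also followed the bands, where Srebf2 itself differed by 1.22-fold and 1.40-fold. Of 18 with enough UMIs, 16 were at least 1.5-fold higher in the highest band of both libraries and 0 lower, against 3.99% and 4.21% of all genes, led by Mvd, which makes isopentenyl diphosphate (log2 3.43 and 3.01). Mvk, mevalonate kinase, passed in the control alone (0.22 in the cKO-labelled library and 0.97 in the control), and Hmgcs1, which makes HMG-CoA, had -0.08 in both. Between the libraries, 5 of 19 were at least 1.5-fold higher in the cKO-labelled library and 1 lower, against 5.71% and 3.22% of all genes, with a median log2 ratio of 0.41. Squalene epoxidase, Sqle, was highest at 11.9 against 6.68 CPM (0.83), and Hmgcs1 lowest at 88.7 against 141 CPM (-0.67).

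Among ChREBP targets in sugar metabolism, 3 of 7 were at least 1.5-fold higher in the cKO-labelled library, against 5.71% of all genes, with a median log2 ratio of 0.43. Tkt, transketolase, was highest at 809 against 408 CPM (0.99) and Khk, ketohexokinase, lowest at 2.08 against 2.72 CPM (-0.39). Along the bands, 4 of 6 were higher in both libraries, against 3.99% of all genes. Tkt led them with 2.60 and 2.38, while Txnip had -0.25 and -0.10. Of 7 LXR targets, 0 were at least 1.5-fold apart between the libraries (median log2 ratio 0.10), where 5.71% of all genes were higher and 3.22% lower, from Apoe at 51.5 against 35.7 CPM (0.53) to Smpdl3a at 4.05 against 5.03 CPM (-0.31). Along the bands, Lpcat3, which remodels phospholipids, was higher in both libraries (0.86 and 0.70), and Smpdl3a (-0.87 and -0.76) and the sterol exporter Abcg1 (-1.88 and -1.33) were lower in both.

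Of 11 genes of the machinery that cuts and degrades SREBP, among them the proteases Mbtps1 and Mbtps2, 0 were at least 1.5-fold apart between the libraries and 0 between the bands in both, and Spring1 was not listed under that symbol. With 5.71% of all genes higher and 3.22% lower between the libraries, and 3.99% and 4.21% between the bands, a count of 0 among 11 is near the background. The median log2 library ratio was 0.02, from Tmem41b (0.26) to the ubiquitin ligase subunit Fbxw7 (-0.19). Along the bands the list ran from Tmem41b, at 0.48 and 0.47, to Erlin2 at -0.50 in the cKO-labelled library and Erlin1 at -0.33 in the control. Of 10 partners and relatives, 2 were at least 1.5-fold higher in the cKO-labelled library, against 5.71% of all genes. They were Pnpla5, from 43 and 38 UMIs (0.74), and Mid1ip1, a relative of Thrsp, at 13.2 against 5.87 CPM (1.17), and the nuclear receptor gene Rxra was lowest at 40.5 against 49.0 CPM (-0.28). Along the bands only Mid1ip1 of 9 was higher in both libraries (1.29 and 1.55), and Pnpla2, the triglyceride lipase related to Pnpla3, was lowest in the cKO-labelled library at -0.77, with -0.08 in the control.

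**Figure D4:**
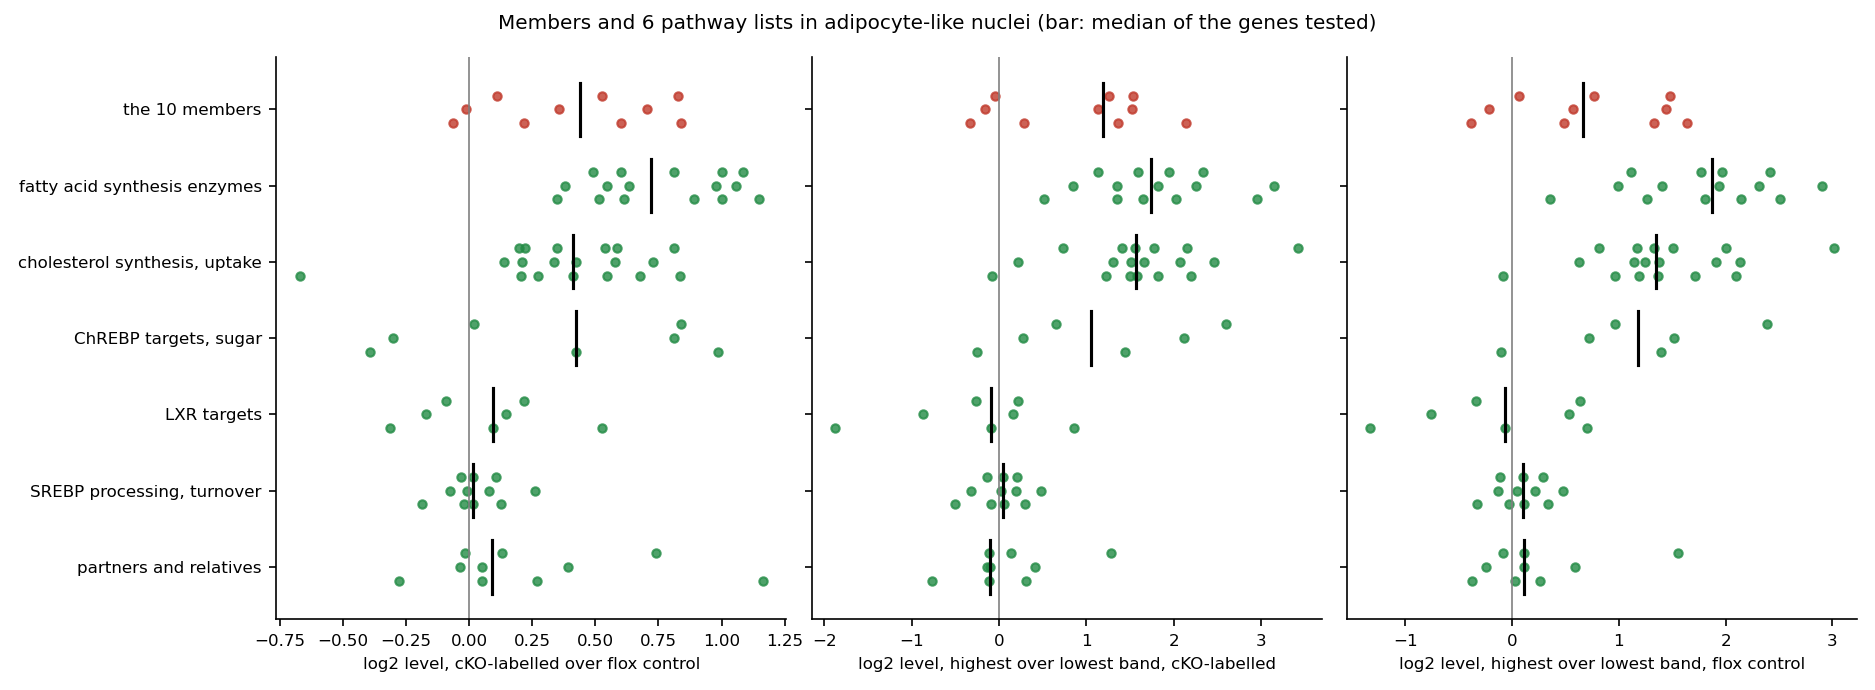
Log2 ratios of CPM in adipocyte-like nuclei for the 10 members (red) and 6 pathway lists (green): cKO-labelled library over flox control (left), and highest over lowest band in the cKO-labelled library (middle) and the control (right); each point is a gene with at least 50 UMIs and black bars are medians, with Acly and Elovl6 left out of the band panels. Fatty acid and cholesterol synthesis lie right of 0 in the band panels apart from Hmgcs1, and SREBP processing genes lie around 0.

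Likeness of pattern was measured as the Pearson correlation of log2(CPM + 1) over 24 sums, which are the 8 other classes and the 4 adipocyte-like bands of each library, among 14614 genes. These points share libraries, depth and adipocyte background, so the values describe and do not test. Srebf1 was most like Sh2b2 (0.98), Mlxipl (0.98) and Gpd1 (0.98). Mlxipl was most like A530016L24Rik (0.99), Pnpla3 (0.99) and Sh2b2 (0.99), and Pnpla3 most like Tmem120b (0.99), Mrap (0.99) and Mlxipl (0.99). Thrsp stood closest to Pdhb (0.98), Mpc1 (0.98) and Fasn (0.98), and Insig1 to Acaca (0.98), Atrn (0.98) and Acss2 (0.98). Nr1h3 was nearest to Arl4a (0.95), Amotl1 (0.93) and March3 (0.91). Srebf2 was nearest to Polr1a (0.92), Map4k1 (0.91) and Usp4 (0.90), with a correlation of 0.11 to Srebf1. The nearest genes were less alike for Mlx (B430219N15Rik, Slc25a10 and Pex16, 0.83 to 0.85), Insig2 (Rimbp2, Nrcam and Gap43, 0.83 to 0.84) and Scap (Helz2, Mtf2 and Dap3, 0.82 to 0.84).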

How the data were processed

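Single nuclei of mesenteric perivascular fat were measured in 2 libraries, 1 per genotype. Values are counts: whole UMIs per gene and nucleus, not normalised, as the authors deposited them. Cell Ranger 6.1.2 and mm10 are named per the submitters' processing notes. The sources used here give no annotation release, no setting for intronic reads and no rule for calling barcodes. The members and lists, and the parts of the analysis that use them, were chosen with earlier results of these data known.

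Nuclei had at least 500 UMIs, 300 genes and under 5% mitochondrial UMIs. Scrublet (scanpy 1.11.5) marked 0 and 0.00861% of nuclei on its own, under the minimum of 0.5%, so the top scores were removed at 0.8% per 1000 nuclei (495 and 1079). Clustering took in both libraries at once, on 2000 variable genes, 30 components and 20 neighbours (leidenalg 0.10.2, resolution 1.0, no batch integration), giving 29 clusters. A name needed 3 markers in 5% of nuclei at 2 times the median of the other clusters, no other set with more genes in the top 10, and, unless a marker was in the top 10, a median depth of at least 0.5 of the library's. That depth limit was set after the data were seen. Adipocyte-like clusters were 0, 1, 3 and 7, and most of the class lay in clusters 0 and 1 in the cKO-labelled library and in clusters 0 and 3 in the control. Names are rebuilt, and differences from other accounts of these nuclei may come from that.

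For each class, counts were summed within a library and scaled to CPM by the class total, with exact Poisson intervals. Log2 ratios have exact conditional binomial intervals. A gene counted as higher or lower past 1.5-fold, among genes with at least 50 UMIs over both groups. CPM values are relative to the total of each sum and are not set against each other between genes. With 1 library per genotype, no p-value was computed. The ratio step was tested on simulated Poisson counts, which hold counting error alone and no variation between libraries. Positions come from GENCODE M21 on GRCm38, which held 32158 of 32285 identifiers, and all 10 members had RefSeq promoter windows. Named genes are the members, the highest and lowest of each list, and the 3 genes most like each member. The design text of the series names total RNA, whereas the sample labels and nuclear protocol were followed.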

Additional observations from a re-analysis of the deposited data

How the results depend on the processing

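No paired analysis was possible because each genotype had 1 library, and for the same reason no replicate could be left out. The counts below were followed under each alternative. Members at least 1.5-fold apart between the libraries in adipocyte-like nuclei numbered 4. They were 0 at a 2-fold threshold, 0 with equal shares of the 4 bands and 2 when adipocyte nuclei were taken by marker share alone, and between 3 and 6 under the other settings. Genes past 1.5-fold numbered 1363, but 882 after thinning to 2000 UMIs, 310 at 2-fold, 3964 at the lower of the thresholds tried, 3134 with at least 10 UMIs and 596 with at least 200 UMIs. The 5 members higher in the highest band of both libraries stayed between 4 and 6, and the 6 members highest in adipocyte-like nuclei at 5 or 6. With the unnamed shallow cluster added, a choice made after seeing the data, the counts were 4, 1573, 5 and 6. Scaling by TMM or by the median of ratios moved all log2 ratios by -0.03 and -0.04, which took Mlx under 1.5-fold. Single ratios of called members kept their direction under every setting run. Under thinning to 2000 UMIs the ratio of highest over lowest band turned for Insig2 in the control (0.21, unthinned -0.38), for Scap in the cKO-labelled library (0.17, unthinned -0.33) and for Nr1h3 in the cKO-labelled library (0.03, unthinned -0.05), Srebf2 in the control moved to 0.93, and Mlx gave no value. The library ratio turned for Insig2 (0.00246, unthinned -0.06) and Scap (-0.13, unthinned 0.11). With 10 bands Nr1h3 turned in both libraries (0.30 and -0.08). The cause was not tested. Depth limits Mlx most, with 462 and 450 UMIs in adipocyte-like nuclei.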

Other observations

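The unnamed shallow cluster, in which 12 of 12 adipocyte markers passed the naming limit, also carried the members. Its leading genes included Pon1, Erbb4, Gpc5, Pdia2, Lrp1b, Grik1 and Rbpjl, of which Rbpjl also led the pancreatic acinar-like cluster. The cluster had 895 CPM of Mlxipl in the cKO-labelled library and 655 CPM in the flox control, 1186 and 884 CPM of Pnpla3, and 165 and 104 CPM of Srebf1. Thrsp was at 831 and 386 CPM there, above its adipocyte-like level of 699.7 CPM in the cKO-labelled library and below that of 395 CPM in the control. Its nuclei were shallow, with a median of 2225 and 3901 UMIs, and mitochondrial UMIs had a median share of 0.554% and 0.547%.

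Classes with under 100 nuclei in a library were not compared. Intestinal epithelial-like nuclei (22 and 132) had Srebf2 at 90.8 CPM in the cKO-labelled library and 149 CPM in the control, and Srebf1 at 162 and 59.0 CPM. Pancreatic acinar-like nuclei (178 and 86) had Srebf1 at 92.8 and 73.95 CPM and Scap at 44.0 and 47.9 CPM. Pericyte-like nuclei (46 and 75) had Nr1h3 at 67.0 and 118 CPM, from 20 and 41 UMIs.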
